A study of Schizosaccharomyces pombe with 9 samples.

Results

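The genes described here are 9 genes of iron and siderophore uptake, siderophore synthesis and iron regulation in the fission yeast Schizosaccharomyces pombe. They were taken by their gene IDs from a count table of 5129 genes. They are fio1 (SPAC1F7.08), fip1 (SPAC1F7.07c), frp1 (SPBC1683.09c), str1 (SPBC4F6.09), str3 (SPAC1F8.03c), sib1 (SPAC23G3.02c), shu1 (SPAC1F8.02c), fep1 (SPAC23E2.01) and php4 (SPBC16E9.01c). All 9 IDs were found, and 8 of the 9 had enough counts to be tested. Poly(A)-selected RNA was sequenced from a strain with a tra1 allele called tra1-AA (its mutation is not described in the labels), from a tra1 deletion strain (tra1D) and from a wild-type strain (WT), with 3 libraries of each. Every culture was grown to mid-log phase in YES, a rich medium, with no further treatment named, and each genotype is a single strain (DHP1509 for tra1-AA, DHP609 for tra1D and DHP43 for WT). Tra1 is a PIKK-family pseudokinase in the co-activator complex SAGA, and the series concerns how a cochaperone of Hsp90 matures such proteins. Separate cultures for the replicates are not stated in the labels, and the p-values then cover only the variation among these 9 libraries.

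Fission yeast takes up iron by several routes. In the reductive route the reductase Frp1 reduces ferric iron at the cell surface, and the oxidase Fio1 and the permease Fip1 together bring the iron through the membrane. In the siderophore route the cell makes ferrichrome with the synthetase Sib1 and brings iron-loaded siderophores in through transporters such as Str1. Shu1 takes up haem, and Str3 is a relative of Str1 whose cargo was not examined here. Fep1, a GATA-type factor, represses the uptake genes when iron is plentiful. Php4 works in the opposite state: when iron is scarce it joins the CCAAT-binding complex and represses genes whose products consume iron. It also represses fep1.

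Fep1 is known to bind GATA elements, so the DNA ahead of these genes was searched for the letters AGATAA and TGATAA on both strands. Sequences and gene starts are from RefSeq, build ASM294v3, and the build behind the counts is not given in the sources used here. The stretches shown are those ahead of the uptake genes whose levels differed most between strains, with sib1 for contrast. Each reads 5′ to 3′ on the strand of its gene, with the GATA letters in capitals. The fio1 stretch is I:4234772-4235071 on the plus strand, the 300 bases before the annotated transcript start. The frp1 stretch is II:162453-162512 on the minus strand, from 120 to 61 bases upstream of the start. The str1 stretch is II:2704177-2704256 on the plus strand, from 480 to 401 bases upstream. The str3 stretch is I:90870-90929 on the minus strand, from 640 to 581 bases upstream, and the sib1 stretch is I:869965-870024 on the minus strand, from 340 to 281 bases upstream. None of the 5 overlaps a protein-coding gene.
fio1: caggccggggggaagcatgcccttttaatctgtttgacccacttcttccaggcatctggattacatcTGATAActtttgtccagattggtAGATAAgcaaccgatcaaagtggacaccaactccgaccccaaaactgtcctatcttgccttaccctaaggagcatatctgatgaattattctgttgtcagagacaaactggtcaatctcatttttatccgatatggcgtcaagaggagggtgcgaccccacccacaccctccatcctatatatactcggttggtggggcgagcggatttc
frp1: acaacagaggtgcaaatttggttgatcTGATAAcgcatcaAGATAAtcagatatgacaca
str1: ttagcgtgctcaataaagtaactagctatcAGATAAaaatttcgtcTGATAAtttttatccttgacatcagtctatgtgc
str3: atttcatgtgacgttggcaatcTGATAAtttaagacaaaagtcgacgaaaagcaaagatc
sib1: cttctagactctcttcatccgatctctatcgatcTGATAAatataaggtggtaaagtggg

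Within 500 bases upstream of the transcript start, 8 of the 9 genes held a match, str3 being the exception. That is a common feature, since 64.4% of the 5112 upstream windows of protein-coding genes held at least 1. A closer pair, with starts at most 30 bases apart, was found ahead of fio1, fip1, frp1, str1 and shu1 and in 6.75% of all windows. That distance was chosen after the positions were seen. fio1 and fip1 are divergent neighbours whose annotated starts lie 303 bases apart, so their pair is one and the same, read from either side. The printed stretches have a longer run of letters in common, ATCTGATAA or ATCAGATAA. Within 1000 bases upstream, this longer run was present ahead of 8 of the 9 genes, fep1 being the exception, on either strand, and in 3.99% of all 5112 windows. For fio1 and fip1 it is again the same run. It lay nearest at 236 bases upstream for fio1, 76 for fip1, 96 for frp1, 453 for str1, 621 for str3, 309 for sib1, 130 for shu1 and 10 for php4. The longer run and its window were chosen after the sequences were seen. A match in letters is a description of the DNA and not evidence of binding. CCAAT, the element of the Php complex, was present in the 500 bases ahead of fio1, fip1, fep1 and php4, and in 59.4% of all windows.

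**Figure D1:**
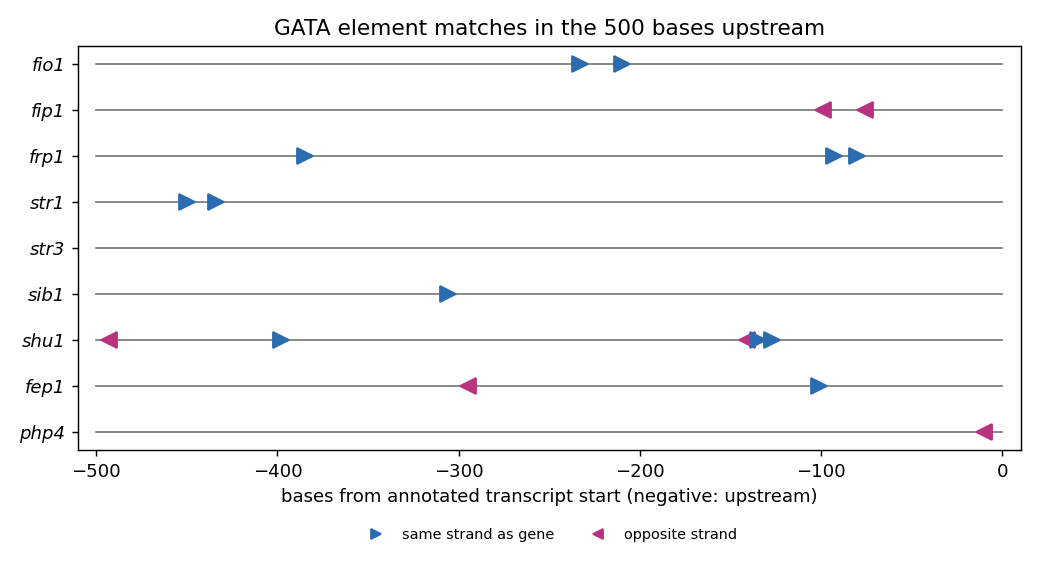
Positions of AGATAA and TGATAA matches, on both strands, in the 500 bases before the annotated transcript start of each of the 9 genes; the x axis is the distance from the start in bases and arrows give the strand relative to the gene. Paired matches stand ahead of fio1, fip1, frp1, str1 and shu1, while str3 has none in this window.

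Library totals lay between 5738138 and 8101004 counts. The tra1 transcript (SPBP16F5.03c) was read 608, 570 and 470 times in tra1-AA, only 5, 2 and 2 times in tra1D, and 771, 704 and 561 times in WT, so the deletion was visible in every tra1D library. Levels below are CPM, counts scaled by TMM to a common library size, and differences are log2 fold changes from a single edgeR quasi-likelihood fit with Benjamini-Hochberg (BH) adjustment over 4913 tested genes. A gene is said to rise or fall where the adjusted p was under 0.05. The titles of tra1D and WT samples carry a re-analysis mark that those of tra1-AA lack, so for tra1-AA the mark and the genotype cannot be told apart.

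In tra1-AA, 3 of the 8 tested genes fell against WT: fio1, fip1 and str1. In tra1D, 4 of the 8 fell: fio1, frp1, str1 and str3. None rose in either mutant. Of all genes tested, 7.96% fell in tra1-AA and 6.35% fell in tra1D. fio1 and str1 fell in both mutants, fip1 passed in tra1-AA alone, and frp1 and str3 passed in tra1D alone. The median log2 fold change of the 8 genes was -0.99 in tra1-AA, with 7 of 8 below 0, against 0.01 for all genes. In tra1D it was also -0.99, with 7 of 8 below 0, against 0.00 for all genes. All 3 mutant libraries lay below all 3 WT libraries for 6 of the 8 genes in tra1-AA, as for 14.9% of all genes, and for 6 of the 8 in tra1D, as for 15.1% of all genes. Both comparisons use the same WT libraries, so they are not independent. Without WT replicate 3 the number that fell was 3 in tra1-AA and 3 in tra1D, being fio1, str1 and fep1 in each, as did 8.05% of all genes in tra1-AA and 6.26% in tra1D in that fit. It was 0 without tra1-AA replicate 2 and 1 without tra1-AA replicate 3 in tra1-AA, and 0 without tra1D replicate 2 and 1 without tra1D replicate 3 in tra1D. Calls in either direction over all genes were fewer in those fits too, at 364 and 521 in tra1-AA, against 781 with all libraries, and at 278 and 323 in tra1D, against 566 with all libraries.

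**Figure D2:**
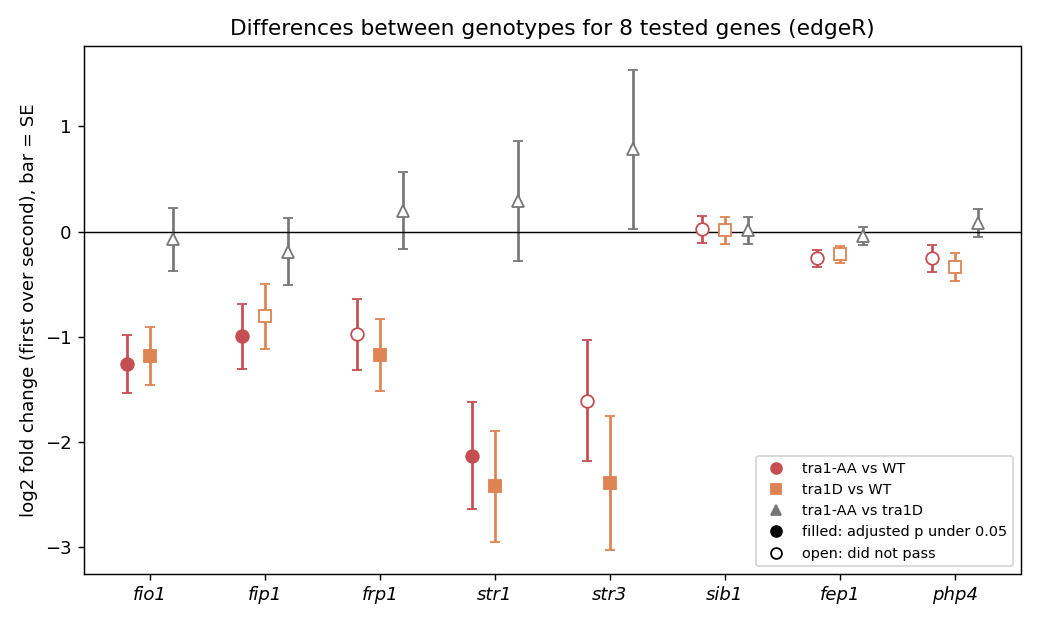
Log2 fold change (y axis, first genotype over second, bars SE) of the 8 tested genes, for each mutant over WT and for tra1-AA over tra1D. Filled symbols passed the edgeR test, and the siderophore transporter str1 has values of -2.13 in tra1-AA and -2.42 in tra1D, while the synthetase gene sib1 lies at 0.02 in tra1-AA and 0.01 in tra1D.

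The ferroxidase gene fio1 had 13.0, 9.37 and 12.5 CPM in tra1-AA, 15.8, 8.81 and 12.2 CPM in tra1D, and 19.6, 24.6 and 40.1 CPM in WT. Every mutant library was below every WT library. In tra1-AA fio1 averaged 11.6 ± 1.98 CPM against 28.1 ± 10.7 CPM in WT (SD, n = 3 each), a 2.40-fold lower level. Its log2 fold change was -1.26 (SE 0.28; edgeR, BH-adjusted p = 0.0105). In tra1D it averaged 12.3 ± 3.52 CPM, 2.28-fold below WT, and its log2 fold change was -1.19 (SE 0.27; edgeR, BH-adjusted p = 0.0176). The fall in tra1-AA was lost without tra1-AA replicate 2 (-1.14, edgeR, BH-adjusted p = 0.0508). The fall in tra1D was lost without tra1D replicate 2 (-0.98, edgeR, BH-adjusted p = 0.08) and without tra1D replicate 3 (-1.19, edgeR, BH-adjusted p = 0.0581).

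The permease gene fip1, the divergent neighbour and protein partner of fio1, had 37.1, 26.4 and 30.5 CPM in tra1-AA, 43.3, 24.5 and 40.1 CPM in tra1D, and 48.0, 40.5 and 100.6 CPM in WT. The tra1-AA libraries were all below the WT libraries, whereas tra1D replicate 1 was above WT replicate 2. WT replicate 3 was more than double the other WT libraries, at 2.27 times their mean. fip1 averaged 31.3 ± 5.38 CPM in tra1-AA, 35.9 ± 10.1 CPM in tra1D and 63.0 ± 32.7 CPM in WT (SD, n = 3). Its fall in tra1-AA had a log2 fold change of -0.997 (SE 0.31; edgeR, BH-adjusted p = 0.0489), close to the threshold. In tra1D the value was -0.81 (SE 0.31; edgeR, BH-adjusted p = 0.115). The call in tra1-AA was lost in 11 of 17 alternatives. Without WT replicate 3 the value in tra1-AA was -0.50 (edgeR, BH-adjusted p = 0.138) and that in tra1D was -0.31. The call was also lost without WT replicate 1 (-1.16), without tra1-AA replicate 1 (-1.14), 2 (-0.90) or 3 (-0.98), and without tra1D replicate 1 (edgeR, BH-adjusted p = 0.0636) or 3 (edgeR, BH-adjusted p = 0.0668). Without WT replicate 2, fip1 passed in tra1D (-1.04, edgeR, BH-adjusted p = 0.0381).

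The reductase gene frp1 had 16.8, 11.3 and 12.3 CPM in tra1-AA, 19.0, 10.9 and 4.86 CPM in tra1D, and 25.8, 20.6 and 33.6 CPM in WT. No mutant library reached the lowest WT library. The lowest tra1D library, replicate 3, rests on 29 counts. frp1 averaged 13.5 ± 2.89 CPM in tra1-AA, 11.6 ± 7.11 CPM in tra1D and 26.6 ± 6.54 CPM in WT (SD, n = 3). The fall in tra1D had a log2 fold change of -1.18 (SE 0.34; edgeR, BH-adjusted p = 0.0461). In tra1-AA the value was -0.98 (SE 0.34; edgeR, BH-adjusted p = 0.0701), which did not pass. The call in tra1D was lost in 9 of 17 alternatives, among them those without tra1D replicate 3 (-0.84, edgeR, BH-adjusted p = 0.103) or 2 (-1.12), without WT replicate 1 (-1.20) or 3 (-0.98), and without tra1-AA replicate 2 or 3 (-1.18 each). In tra1-AA frp1 passed without tra1D replicate 1 (edgeR, BH-adjusted p = 0.0344) or 3 (edgeR, BH-adjusted p = 0.0265), each at -0.98. It also passed there in the fit of only the 2 genotypes compared (-0.98, edgeR, BH-adjusted p = 0.0202).

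**Figure D3:**
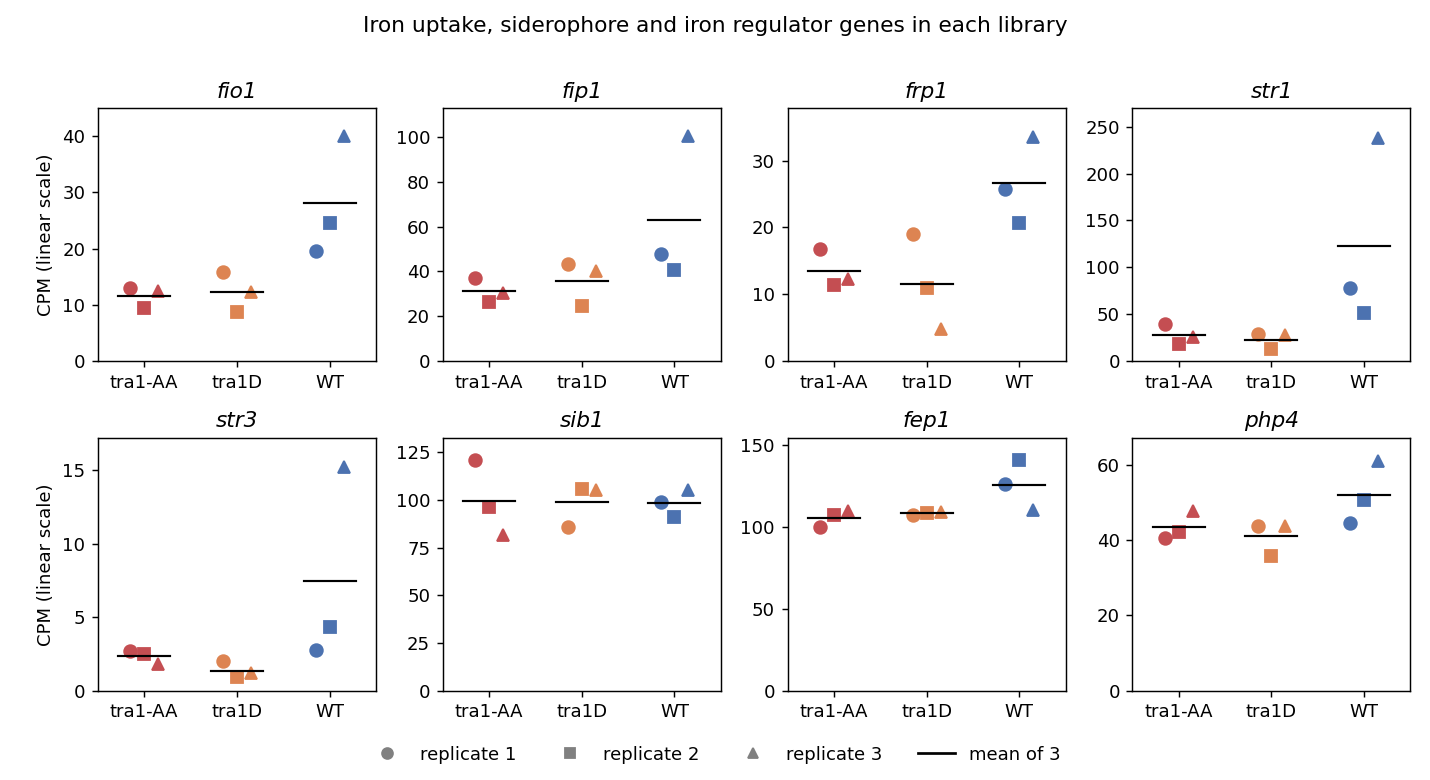
CPM (y axis, linear from 0) of the 8 tested genes in each of the 9 libraries, by genotype; symbols mark the replicate and bars the mean of 3. WT replicate 3 is the highest of the 9 libraries for fio1, fip1, frp1, str1, str3 and php4, with 238.3 CPM for str1, while sib1 overlaps between all genotypes.

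The siderophore transporter gene str1 fell in both mutants. It had 39.4, 18.0 and 25.9 CPM in tra1-AA, 28.8, 12.4 and 27.7 CPM in tra1D, and 78.0, 51.0 and 238.3 CPM in WT. All 6 mutant libraries were below all WT libraries, and the WT libraries themselves differed widely. In tra1-AA str1 averaged 27.8 ± 10.8 CPM against 122.4 ± 101.2 CPM in WT (SD, n = 3 each), a log2 fold change of -2.13 (SE 0.51; edgeR, BH-adjusted p = 0.0167), or 4.38-fold lower. In tra1D it averaged 22.9 ± 9.13 CPM, a log2 fold change of -2.42 (SE 0.53; edgeR, BH-adjusted p = 0.0125), or 5.36-fold lower. The size depends on WT replicate 3, which was 3.69 times the mean of the other WT libraries. Without it, str1 still fell, with -1.22 for tra1-AA (edgeR, BH-adjusted p = 0.0252) and -1.51 for tra1D (edgeR, BH-adjusted p = 0.0117). The call was lost in tra1-AA without tra1-AA replicate 2 (-1.91, edgeR, BH-adjusted p = 0.0716) or 3 (-2.08, edgeR, BH-adjusted p = 0.0513), and in tra1D without tra1D replicate 2 (edgeR, BH-adjusted p = 0.0641).

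str3 encodes a relative of Str1 and was the least abundant of the tested genes. It had 2.72, 2.52 and 1.80 CPM in tra1-AA, 2.03, 0.906 and 1.17 CPM in tra1D, and 2.78, 4.37 and 15.2 CPM in WT. The libraries of both mutants lay below those of WT, but the highest tra1-AA library came within 3 counts of the lowest WT library, with 19 counts against 22, and WT replicate 3 held 96 counts. str3 averaged 2.35 ± 0.481 CPM in tra1-AA, 1.37 ± 0.589 CPM in tra1D and 7.45 ± 6.77 CPM in WT (SD, n = 3). The fall of str3 in tra1D had a log2 fold change of -2.39 (SE 0.64; edgeR, BH-adjusted p = 0.0319), or 5.24-fold. In tra1-AA the value was -1.61 (SE 0.57; edgeR, BH-adjusted p = 0.0785), which did not pass. Without WT replicate 3 the values were -0.59 in tra1-AA and -1.37 in tra1D (edgeR, BH-adjusted p = 0.0527 in tra1D). The call in tra1D was also lost without tra1D replicate 1 (-2.79), 2 (-2.13) or 3 (-2.31). In tra1-AA str3 passed without WT replicate 1 (-2.02, edgeR, BH-adjusted p = 0.0318).

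The ferrichrome synthetase gene sib1 had overlapping levels in all genotypes, whereas str1 and str3 lay below WT in every library of both mutants. It had 120.7, 96.5 and 81.5 CPM in tra1-AA, 85.9, 105.7 and 104.9 CPM in tra1D, and 98.7, 90.9 and 105.0 CPM in WT. Neither mutant stood to one side of WT. The log2 fold change was 0.02 (SE 0.13; edgeR, BH-adjusted p = 0.925) in tra1-AA and 0.01 (SE 0.13; edgeR, BH-adjusted p = 0.968) in tra1D. The 17 alternatives gave -0.14 to 0.15 in tra1-AA and -0.04 to 0.10 in tra1D, passing in 0 of them. The other gene of ferrichrome synthesis that shares its upstream region, sib2, which starts 1108 bases from sib1 on the other strand, lay at -0.07 in tra1-AA and 0.16 in tra1D and did not pass.

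The haem uptake gene shu1 was almost unread. Its reads numbered 1, 3 and 1 in the tra1-AA libraries, 3, 1 and 1 in those of tra1D, and 0, 0 and 0 in those of WT. It stayed below the filter on low counts and was not tested with the others. The count of 0 in WT allows a level of up to 0.139 CPM over the group (3 counts). The sums of 5 counts against 0 gave an exact 95% interval of the mutant to WT ratio that starts at 0.951 for tra1-AA and at 0.961 for tra1D, so a difference was not detectable at this depth. Such intervals and limits cover counting error only.

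The repressor gene fep1 had 99.7, 107.2 and 109.6 CPM in tra1-AA, 107.5, 108.5 and 109.3 CPM in tra1D, and 126.2, 140.9 and 110.4 CPM in WT. Every mutant library was below every WT library, though the highest mutant and lowest WT libraries nearly met. The log2 fold change was -0.26 (SE 0.08; edgeR, BH-adjusted p = 0.0589) in tra1-AA and -0.22 (SE 0.08; edgeR, BH-adjusted p = 0.12) in tra1D, and neither passed. For fep1 WT replicate 3 was the lowest WT library, at 0.827 times the mean of the others, where for 7 of the 8 tested genes it was the highest. Without that library fep1 passed in both mutants, at -0.34 for tra1-AA (edgeR, BH-adjusted p = 0.0107) and at -0.30 for tra1D (edgeR, BH-adjusted p = 0.0237).

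php4, the gene of the repressor used when iron is scarce, had 40.5, 42.2 and 47.8 CPM in tra1-AA, 43.9, 35.7 and 43.9 CPM in tra1D, and 44.6, 50.6 and 61.0 CPM in WT. The tra1D libraries lay below the WT libraries, and those of tra1-AA overlapped with them. The log2 fold change was -0.25 (SE 0.13; edgeR, BH-adjusted p = 0.204) in tra1-AA and -0.34 (SE 0.13; edgeR, BH-adjusted p = 0.117) in tra1D. It passed in 0 of 17 alternatives in either comparison.

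For fio1, fip1, str1 and str3 the replicates differed most in WT, with a coefficient of variation in WT of 38.1%, 52.0%, 82.7% and 90.8% in that order of genes. WT replicate 3 was above the mean of the other WT libraries in most uptake genes, at 4.26 times that mean for str3, 3.69 times for str1, 2.27 times for fip1, 1.82 times for fio1 and 1.45 times for frp1. It was both the highest WT library and at least 1.5-fold above that mean for 4 of the 8 tested genes, as for 1.55% of all genes. Neither this library nor this limit was part of the planned comparisons, and frp1 lay just under the limit. The ratio was 1.28 for php4 and 1.11 for sib1. Summed over fio1, fip1, frp1, str1 and str3, the level was 109.0, 67.7 and 83.0 CPM in tra1-AA, 109.0, 57.5 and 86.0 CPM in tra1D, and 174.1, 141.1 and 427.7 CPM in WT. The sums of the mutants stayed below every WT sum, and WT replicates 1 and 2 lay much nearer to the mutants than WT replicate 3. What sets WT replicate 3 apart was not tested. The biological coefficient of variation, the replicate spread that edgeR estimates beyond counting error, was 0.216 for fio1, 0.254 for fip1, 0.408 for str1 and 0.416 for str3, against 0.0932 as the common value over genes.

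**Figure D4:**
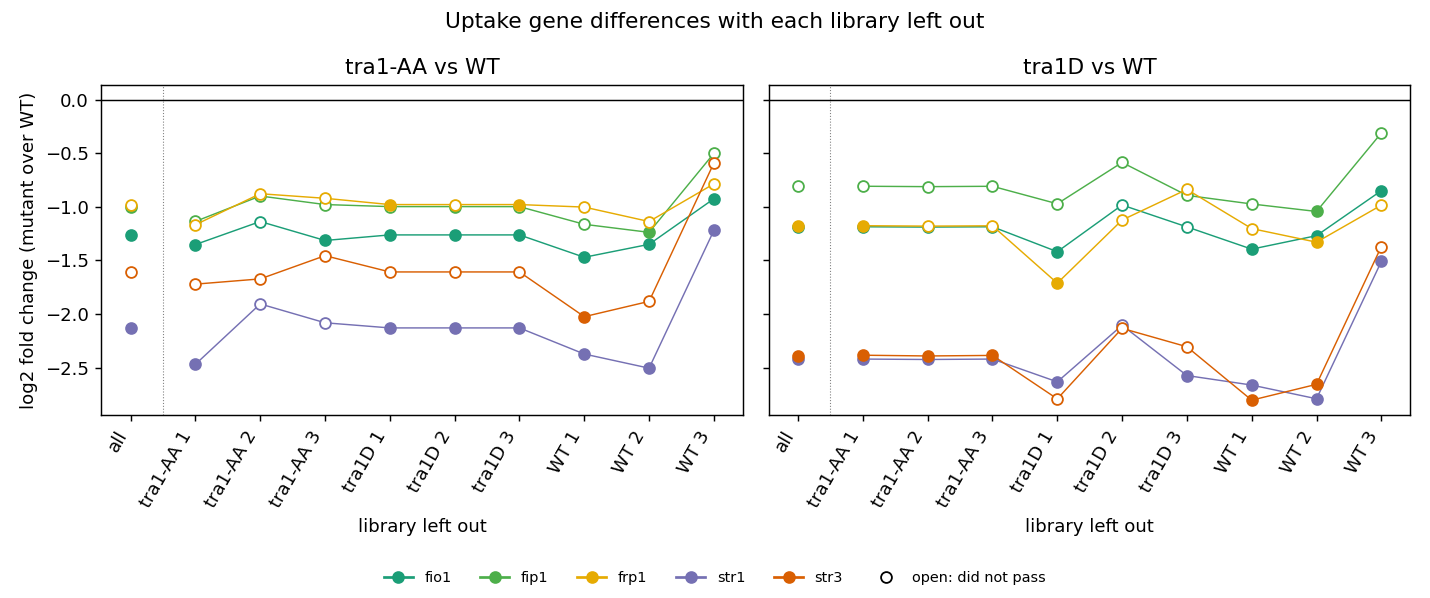
Log2 fold change (y axis, mutant over WT) of fio1, fip1, frp1, str1 and str3 with all 9 libraries and with each library left out in turn (x axis); filled points passed the edgeR test, and lines only join points of a gene. All values stay below 0, and leaving out WT replicate 3 brings str1 to -1.22 in tra1-AA and -1.51 in tra1D.

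Between the mutants 0 of the 8 tested genes passed the edgeR test, as did 0.0407% of all genes. The number with an unadjusted p under 0.05 was also 0, and DESeq2 called 0. The log2 fold change of tra1-AA over tra1D was -0.08 (SE 0.30) for fio1, -0.19 (SE 0.32) for fip1, 0.20 (SE 0.36) for frp1, 0.29 (SE 0.57) for str1 and 0.78 (SE 0.76) for str3. For sib1 it was 0.01 (SE 0.13), for fep1 -0.04 (SE 0.08) and for php4 0.08 (SE 0.13). The edgeR BH-adjusted p was 0.9985 for each. The standard errors of the transporters are wide, so fip1 passing in tra1-AA alone, and frp1 and str3 in tra1D alone, does not show a difference between the mutants.

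Per kilobase of annotated exons, str1 stood first in the mean of the 3 WT libraries and 4th in both mutants, and without WT replicate 3 it stood 4th in WT as well, behind fep1, php4 and fip1. In tra1-AA the means were 30.1 ± 1.48 CPM per kb for fep1, 28.7 ± 2.51 for php4, 17.7 ± 3.04 for fip1, 9.28 ± 3.61 for str1, 6.64 ± 1.32 for sib1, 6.61 ± 1.42 for frp1, 4.15 ± 0.705 for fio1 and 1.12 ± 0.23 for str3 (SD, n = 3). The order was the same in tra1D, with 31.0 ± 0.258 CPM per kb for fep1, 7.67 ± 3.05 for str1 and 0.656 ± 0.282 for str3. In WT the means were 40.9 ± 33.8 CPM per kb for str1, 35.9 ± 4.36 for fep1, 35.6 ± 18.5 for fip1, 34.3 ± 5.48 for php4, 13.1 ± 3.21 for frp1, 10.01 ± 3.82 for fio1, 6.55 ± 0.473 for sib1 and 3.57 ± 3.24 for str3. Neighbours in the order overlapped between libraries in tra1-AA for fep1 and php4, and for str1, sib1 and frp1. They overlapped in tra1D for php4 and fip1, and for str1, sib1, frp1 and fio1. In WT only php4 and frp1 were neighbours without overlap. Gene copies of at least 50 bases and 90% identity elsewhere in the genome were found for 0 of the 9 genes. RNAs annotated on the opposite strand overlap 7 of the 9, all but fip1 and frp1. The kit marks strand, but the strand setting of the counting is not given in the sources used here.

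The authors' deposited tables give smaller differences for the same genes. In the authors' deposited table for tra1-AA the log2 fold change was -0.89 for fio1 (DESeq2, adjusted p = 2.38e-05), -0.75 for frp1 (DESeq2, adjusted p = 0.000199), -0.57 for str3 (DESeq2, adjusted p = 0.0234) and -0.45 for str1 (DESeq2, adjusted p = 0.0476). In the authors' deposited table for tra1D it was -0.82 for fio1 (DESeq2, adjusted p = 0.000211), -0.76 for str3 (DESeq2, adjusted p = 0.000935) and -0.48 for str1 (DESeq2, adjusted p = 0.0344). fip1 did not pass in either of the authors' deposited tables, with adjusted p-values of 0.107 in tra1-AA and 0.305 in tra1D. frp1 passed in tra1-AA there but not in tra1D (authors' deposited table, -0.39, DESeq2, adjusted p = 0.173), the reverse of the edgeR fit. sib1, fep1 and php4 did not pass in either of the authors' deposited tables. All 5 uptake genes had negative values in both sources. Whether the authors' log2 fold changes were shrunken is not given in the sources used here. DESeq2 run on the same counts without shrinkage gave -2.15 for str1 in tra1-AA and -2.42 in tra1D.

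Outside the 9 genes, the levels most like those of str1 and of fio1 were found by the root mean square distance between log2 CPM over the 9 libraries, each gene centred on its own mean, among genes of at least 10 CPM on average. Nearest to str1 were SPAC2H10.01, annotated as a transcription factor (distance 0.505), SPCC569.05c, annotated as a spermidine family transporter (0.569), and SPCC1235.17, an uncharacterized protein gene (0.603). str3 lay at 0.521 and fio1 at 0.605, while the distance of str1 from a flat profile was 1.18. Nearest to fio1 were SPCC569.05c (0.246), SPCC1235.17 (0.249) and cat1 (0.264), which encodes an arginine and lysine transporter, with fip1 at 0.253. SPAC2H10.01 had 26.2, 18.0 and 31.1 CPM in tra1-AA, 26.3, 21.5 and 27.2 CPM in tra1D, and 92.9, 85.3 and 134.2 CPM in WT. It was picked by its profile over these same libraries, so its values are a description. Its log2 fold change was -2.05 for tra1-AA and -2.06 for tra1D.

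The wider iron system was described with 6 gene lists of 73 genes found in the table. Their calls are read against the 7.96% of all genes that fell and 7.94% that rose in tra1-AA, and the 6.35% that fell and 5.17% that rose in tra1D. Of 9 regulators, fep1 and php4 included, 1 fell in each mutant and none rose: grx4, the monothiol glutaredoxin that passes the iron state on to Fep1 and Php4. grx4 had 153.2, 138.3 and 158.6 CPM in tra1-AA, 170.6, 144.9 and 161.1 CPM in tra1D, and 211.8, 205.2 and 232.6 CPM in WT. The mutants lay below WT without overlap. Its log2 fold change was -0.53 (edgeR, BH-adjusted p = 0.00123) for tra1-AA and -0.45 (edgeR, BH-adjusted p = 0.00418) for tra1D. The subunits of the CCAAT-binding complex did not pass, with values of -0.02 for php2, 0.10 for php3 and 0.17 for php5 in tra1-AA, and -0.08 for php2, 0.11 for php3 and 0.10 for php5 in tra1D. Nor did the corepressor genes tup11 (-0.06 in tra1-AA, -0.05 in tra1D) and tup12 (0.16 in tra1-AA, 0.11 in tra1D) or the iron sensor gene fra2 (0.12 in tra1-AA, 0.06 in tra1D). The median of the list was -0.02 in tra1-AA and -0.05 in tra1D. Without WT replicate 3 the number of regulators that fell was 2 in each mutant, fep1 among them, beside 8.05% of all genes in tra1-AA and 6.26% in tra1D.

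Of 7 other genes of iron acquisition, 1 fell in tra1-AA and 0 in tra1D. This was abc3, which encodes an ABC transporter of the vacuole, with 42.0 ± 4.74 CPM in tra1-AA, 48.8 ± 12.4 CPM in tra1D and 65.7 ± 4.63 CPM in WT (SD, n = 3). Its log2 fold change was -0.64 (edgeR, BH-adjusted p = 0.0191) for tra1-AA and -0.44 (edgeR, BH-adjusted p = 0.0996) for tra1D. The siderophore transporter gene str2, a relative of str1 and str3, had values of 0.08 in tra1-AA and 0.18 in tra1D and did not pass. The median of the list was -0.17 in tra1-AA and -0.13 in tra1D. Fio1 needs copper, and of 6 genes of copper supply 0 passed in either mutant, with medians of -0.20 in tra1-AA and -0.30 in tra1D. Within that list, the genes of the copper transporter subunits ctr4 and ctr5 varied most in tra1D. ctr4 had 449.0, 349.8 and 512.1 CPM in tra1-AA, 401.6, 336.5 and 71.7 CPM in tra1D, and 323.1, 258.2 and 486.0 CPM in WT. ctr5 had 305.2, 246.5 and 297.2 CPM in tra1-AA, 249.7, 248.9 and 90.7 CPM in tra1D, and 341.9, 278.6 and 461.0 CPM in WT. For both genes tra1D replicate 3 stood far below the other 8 libraries, and it is also the library in which frp1 was lowest. The log2 fold change of tra1D over WT was -0.39 for ctr4 and -0.87 for ctr5 (edgeR, BH-adjusted p = 0.0826 for ctr5), and without tra1D replicate 3 it was 0.05 for ctr4 and -0.53 for ctr5 (edgeR, BH-adjusted p = 0.104 for ctr5). The part of that library in the fall of frp1, which was lost without it, was not tested further.

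Haem synthesis, a large consumer of iron, held genes that moved in both directions. Of 8 genes 3 fell and 1 rose in tra1-AA, and 3 fell and 1 rose in tra1D. hem1, the gene of 5-aminolevulinate synthase at the head of the pathway, averaged 311.6 ± 19.5 CPM in tra1-AA, 306.7 ± 30.9 CPM in tra1D and 497.7 ± 22.0 CPM in WT (SD, n = 3). Its log2 fold change was -0.68 (edgeR, BH-adjusted p = 0.000332) for tra1-AA and -0.70 (edgeR, BH-adjusted p = 0.000276) for tra1D. hem3, for the synthase that builds the linear tetrapyrrole, fell by 0.39 on the log2 scale in tra1-AA and by 0.41 in tra1D. hem4, for the synthase that closes the ring, fell by 0.28 in tra1-AA and by 0.33 in tra1D. hem15, for the ferrochelatase that inserts iron at the last step, rose, with log2 fold changes of 0.47 in tra1-AA and 0.51 in tra1D. The median was -0.13 in tra1-AA and -0.15 in tra1D.

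Of 17 genes of iron-sulphur cluster assembly, 2 fell and 1 rose in tra1-AA, and 1 fell and 1 rose in tra1D. dre2, for an early factor of the cytosolic pathway, averaged 139.4 ± 7.54 CPM in tra1-AA, 151.9 ± 4.36 CPM in tra1D and 220.8 ± 11.3 CPM in WT (SD, n = 3). Its log2 fold change was -0.66 (edgeR, BH-adjusted p = 6.25e-05) for tra1-AA and -0.54 (edgeR, BH-adjusted p = 0.000249) for tra1D. nfs1, the cysteine desulfurase gene, fell in tra1-AA, at -0.25 (edgeR, BH-adjusted p = 0.0411), and had a value of -0.15 in tra1D. etp1, which encodes a fusion protein with ferredoxin, rose with log2 fold changes of 0.32 in tra1-AA and 0.29 in tra1D. The median was 0.07 in tra1-AA and 0.05 in tra1D. Without WT replicate 3, 1 gene of cluster assembly fell and 2 rose in tra1-AA, where 5.75% of all genes rose in that fit, as did 3.84% in tra1D. Of 26 iron-using enzymes, 3 fell and 2 rose in tra1-AA, and 2 fell and 2 rose in tra1D. The sulphite reductase gene sir1 (-0.64 in tra1-AA, -0.54 in tra1D) and the cytochrome c gene cyc1 (-0.32 in tra1-AA, -0.37 in tra1D) fell in both mutants. The glutamate synthase gene glt1 fell in tra1-AA (-0.36) and had a value of -0.25 in tra1D. The catalase gene ctt1 (0.48 in tra1-AA, 0.49 in tra1D) and the DNA repair helicase gene rad15 (0.32 in each) rose in both. The median was -0.08 in tra1-AA and -0.10 in tra1D. Without WT replicate 3, 5 iron-using enzymes fell in tra1-AA and 4 in tra1D, read against the 8.05% and 6.26% above. In the comparison of tra1-AA with tra1D, 0 genes of any of the 6 lists passed with edgeR.

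**Figure D5:**
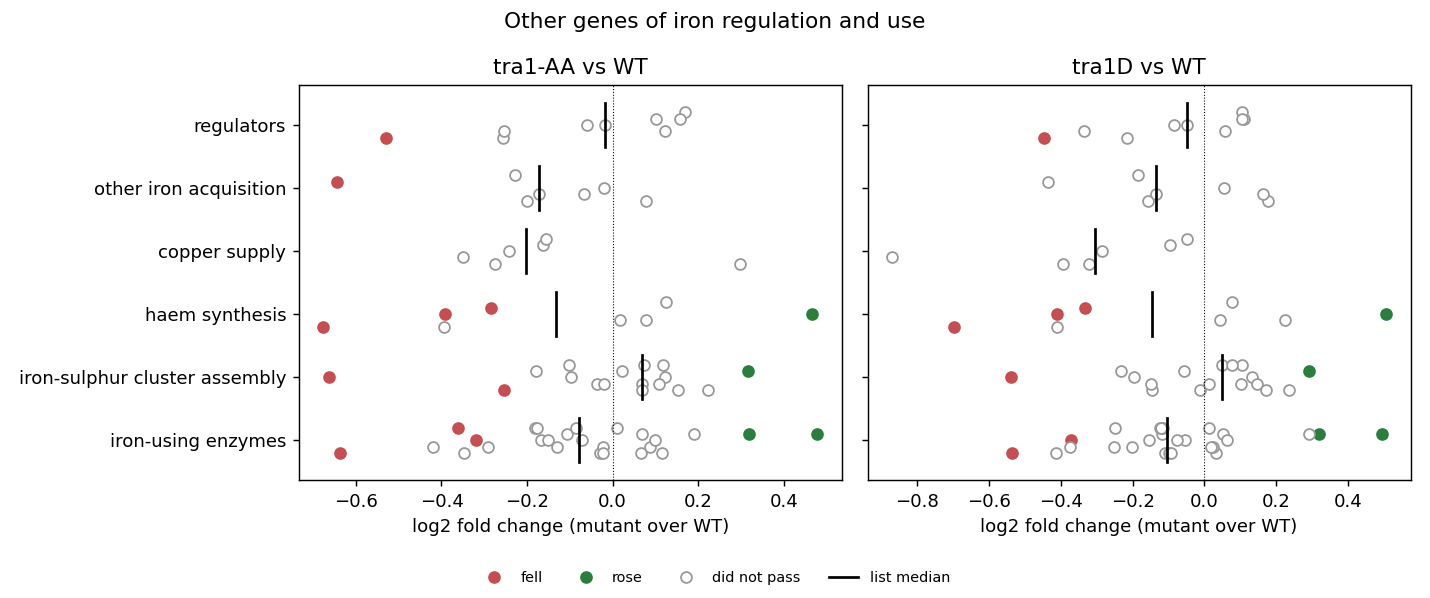
Log2 fold change (x axis, mutant over WT) of each tested gene in the 6 lists of the wider iron system, for tra1-AA and tra1D; red points fell, green points rose, open points did not pass and black bars are list medians. The medians lie between -0.20 and 0.07 in tra1-AA and between -0.30 and 0.05 in tra1D.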

How the data were processed

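RNA was measured in 9 libraries, 3 each of tra1-AA, tra1D and WT. Per the labels' protocols, poly(A)-selected RNA was made into stranded TruSeq libraries and read as single 50-base reads in 1 lane. Per the submitters' processing notes, the authors used bcl2fastq, HISAT2 2.1.0, HTSeq 0.9.1 and DESeq2 1.18.1. The authors deposited raw, unnormalised counts of reads for every gene. Their tables of each mutant over WT hold log2 fold changes with log2 standard errors, a Wald score and p-values, per the file headers. Build, annotation and strand setting behind the counts: not given in the sources used here.

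Of 5129 genes, 66 had no count, and 5111 IDs matched the RefSeq table while 18 did not. Columns per sample left unused numbered 0. filterByExpr (minimum count 10, minimum total 15) kept 4913 genes. edgeR 4.0.16 (R 4.3.3) with TMM factors fitted all 9 libraries together, and calls used a BH-adjusted p under 0.05. The fit was tested on simulated data. CPM per kb used RefSeq exon lengths. Upstream sequence came from RefSeq ASM294v3, by gene ID. Copies were sought with BLAST 2.17.0. Between replicates the chi-square per degree of freedom was 8.41 to 28.8, so none was a copy of another. What a replicate number marks is not stated in the labels. Deviations of same-numbered libraries from their group means correlated at 0.109, 0.357 and 0.215 for replicates 1, 2 and 3 of tra1-AA and WT. Libraries with different numbers reached 0.22, for tra1D replicate 2 with tra1-AA replicate 1, and 0.0849 between tra1-AA and WT. Deviations from a mean of 3 libraries are not independent of each other, so these values do not decide a pairing. The main fit used no replicate block, and its p-values leave any pairing out.

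All 9 genes are named. Of each list, called genes (up to 4 per comparison with the largest change) and all regulators are named; for likeness, the 3 nearest genes. sib2, str2, ctr4, ctr5, pairs of GATA matches and the longer GATA run were chosen after their values or positions were seen. The members and lists were chosen with earlier results of these data known. The lists held 85 names, of which 7 were not found and 5 were left out because the name matched a gene of another function. Alternatives were DESeq2 1.42.0, RLE factors, unscaled library totals, no filter on low counts, a minimum count of 50, limma-voom (limma 3.58.1), only the 2 genotypes compared, a replicate block and each library left out. List counts without WT replicate 3, and the copper genes without tra1D replicate 3, were added after seeing the data. Other tools were Python 3.11.15, numpy 2.4.6, pandas 2.3.3, scipy 1.17.1 and matplotlib 3.10.9.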

Additional observations from a re-analysis of the deposited data

How the results depend on the processing

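Across 17 alternatives (16 for str3, which a minimum count of 50 removed), the values of fio1, fip1, frp1, str1, str3, fep1 and php4 stayed below 0 in both mutants, while those of sib1 took either sign. fio1 passed in 16 alternatives in tra1-AA and 15 in tra1D, and str1 in 15 and 16. fip1 in tra1-AA passed in 6, frp1 in tra1D in 8, and str3 in tra1D in 10. Leaving out 1 library at a time gave 0 to 3 called genes of the 9 in tra1-AA and 0 to 5 in tra1D, with the 0 arising without tra1-AA replicate 2 and without tra1D replicate 2. Over all genes it gave 364 to 845 calls in tra1-AA (781 with all libraries), 278 to 655 in tra1D (566) and 2 to 5 between the mutants (2). The fit of only the 2 genotypes compared called 2 of the 9 in tra1D, and DESeq2 called 4 genes of all between the mutants. The cause of these shifts was not tested. Fits that leave out a library or a genotype also hold fewer samples, and the part of that was not tested either. With library totals alone neither fip1 for tra1-AA (edgeR, BH-adjusted p = 0.076) nor frp1 for tra1D passed (edgeR, BH-adjusted p = 0.0615). DESeq2 brought str3 past the threshold in tra1-AA (DESeq2, adjusted p = 0.0185) and lost fip1 in tra1-AA (DESeq2, adjusted p = 0.0722) and frp1 in tra1D (DESeq2, adjusted p = 0.0757).

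With the replicate number as a block, 3 of the 9 genes were called in tra1-AA, 4 in tra1D and 0 between the mutants, and over all genes 718, 514 and 3. The block changed no call of the 9 genes. For tra1D and WT the correlations of same-numbered libraries were -0.0737, -0.116 and -0.0103, and for the mutants with each other -0.203, -0.0777 and -0.0171. These values do not decide whether same-numbered libraries share more than a number.

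The precision of str3 and shu1 is limited by their few counts, and that of the uptake genes in general by the spread of 3 WT libraries.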
